A study of Mus musculus with 16 samples.

Results

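The 10 genes described here encode the PGC-1 coactivators and the transcription factors that they act with or through in building mitochondria. They were chosen by name: Ppargc1a, Ppargc1b, Pprc1, Esrra, Esrrg, Nrf1, Gabpa, Tfam, Ppara and Ppard, 10 of the 49585 genes in the count tables. RNA-seq counts were available from 16 libraries of C2C12, a mouse myoblast line that fuses into multinucleated myotubes when serum is lowered. The first table held parental (WT) cells and cells in which CRISPR/Cas9 had disrupted Prkaa1 and Prkaa2, the genes of both catalytic α subunits of AMP-activated protein kinase (AMPK-KO). Each was sampled as myoblasts in growth medium (d0) and after 8 days in 2% equine serum (d8), with 2 libraries per group. The second table held undifferentiated cells that were AMPK-KO by label in every library. In them the endogenous Tet2 gene, encoding a 5-methylcytosine dioxygenase, carried a FLAG-BirA tag. In TET2-WT cells the tagged protein was otherwise unchanged. In TET2-S97E cells serine 97, the site that AMPK phosphorylates, was replaced by glutamic acid to imitate phosphorylation. Each TET2 genotype was given by 2 clones with 2 libraries each, so that libraries of a clone share their source and a genotype stands for the cells of 2 clones. Nothing in the labels says that 2 libraries of a group came from separate cultures, so p-values measure the spread between these libraries, which may be technical. The study worked with independent AMPK-KO lines, and the labels do not say which line a library came from, so AMPK-KO replicates may also be different lines. The tables held 17883417 to 24663079 assigned read pairs per library in the first and 19801909 to 37790358 in the second.

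On GRCm38, Ppargc1a (ENSMUSG00000029167.13) lies on chromosome 5 at 51454250 to 51567726 on the minus strand. Ppargc1b lies on chromosome 18 at 61298136 to 61400431 and Pprc1 on chromosome 19 at 46044886 to 46072915. Esrra (ENSMUSG00000024955.13) lies on chromosome 19 at 6910977 to 6921813 on the minus strand, and Esrrg on chromosome 1 at 187608791 to 188214885. Nrf1 lies on chromosome 6 at 30047988 to 30153458, Gabpa on chromosome 16 at 84834925 to 84863779 and Tfam on chromosome 10 at 71225464 to 71238280. Ppara lies on chromosome 15 at 85734983 to 85802819 and Ppard on chromosome 17 at 28232700 to 28301474. Exons of Pprc1 share 177 bp with Ldb1 on the opposite strand, those of Gabpa 397 bp with Atp5j and those of Esrra 73 bp with Trmt112. Since the strand setting of the counting is not given in the sources used here, reads in those stretches cannot be told apart. The Esrra exons also contain 91 bp of the microRNA gene Mir6990 on the same strand.

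Mitochondria are built from proteins of both the nuclear and the mitochondrial genome, and the PGC-1 family coordinates the nuclear share. PGC-1α (Ppargc1a), PGC-1β (Ppargc1b) and PRC (Pprc1) do not bind DNA themselves. They are recruited by nuclear receptors, among them ERRα (Esrra), ERRγ (Esrrg), PPARα (Ppara) and PPARδ (Ppard), and by nuclear respiratory factor 1 (Nrf1) and the ETS factor GABPα (Gabpa). NRF-1 and GABP drive genes of the respiratory chain and Tfam, which packages mitochondrial DNA and starts its transcription. In skeletal muscle, PGC-1α is induced by contraction, is a substrate of AMPK, and raises oxidative capacity together with ERRα and ERRγ.

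Promoter stretches of 3 genes are shown, those of Ppargc1a and Esrra because they gave the only calls among the 10 genes, and that of Tfam because it holds a letter match to the site type of another member of the set. No expression value here was tested against them. The stretches of Ppargc1a and Esrra end before the first annotated exon, and that of Tfam lies before the RefSeq start but inside the gene as given above from GENCODE. All are written 5′ to 3′ on the strand of the gene (minus in each case) and were taken from RefSeq on GRCm38.p6. Capitals mark a cAMP response element core (TGACG, read on the opposite strand as CGTCA) in Ppargc1a and an ETS site (CCGGAAGT, the site type that GABP binds) in Tfam, and the Esrra stretch held no match.
Ppargc1a, chr5:51567727-51567975, 250 to 2 bases before the start: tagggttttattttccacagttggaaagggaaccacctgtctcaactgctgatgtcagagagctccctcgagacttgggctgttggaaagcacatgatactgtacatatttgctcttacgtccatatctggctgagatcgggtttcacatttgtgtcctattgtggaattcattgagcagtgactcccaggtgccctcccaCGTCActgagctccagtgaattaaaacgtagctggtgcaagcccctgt
Esrra, chr19:6921814-6922058, 250 to 6 bases before the start: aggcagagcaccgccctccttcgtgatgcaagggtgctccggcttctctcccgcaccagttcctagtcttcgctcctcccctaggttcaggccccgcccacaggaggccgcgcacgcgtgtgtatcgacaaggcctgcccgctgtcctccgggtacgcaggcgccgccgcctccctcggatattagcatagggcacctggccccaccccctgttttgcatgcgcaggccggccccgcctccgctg
Tfam, chr10:71238073-71238102, 58 to 29 bases before the start: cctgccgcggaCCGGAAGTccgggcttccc
In windows of 300 bases around annotated starts (250 before, 50 after), searched on both strands, the cAMP response element core occurred in 20.8% of 32851 windows and, of the 9 genes of the set with a window, in those of Ppargc1a, Ppara and Ppard. The ETS site occurred in 3.89% of windows and in Tfam alone of the set. The NRF-1 palindrome (0.971% of windows) was found in Ppara, a nuclear receptor motif (AGGTCA, 16.3%) in Pprc1, an E-box (CAGCTG, 16.3%) in Esrra and Ppard, and the MEF2 motif (3.69%) in Esrrg. A match describes the letters only.

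Per unit of transcript length, the set spanned a wide range. Levels between genes are given in TPM (transcript abundance corrected for length and depth), computed from the counts with merged exon length, as the mean of the libraries of a group. In WT d0 cells the mean level was 76.0 TPM for Gabpa, 50.2 for Tfam, 40.7 for Pprc1, 32.9 for Esrra, 24.4 for Ppard, 15.9 for Nrf1 and 8.34 for Ppargc1b. Far below these stood Ppargc1a at 0.629 TPM, Ppara at 0.352 and Esrrg at 0.0151. The libraries of neighbours in this order overlapped between Tfam and Pprc1 and between Ppargc1a and Ppara, and not between the other neighbours. Gabpa and Tfam were the most abundant members in each of the 6 groups, without overlap between them. Of the coactivators, the most abundant was Pprc1 in every group, not the gene of PGC-1α. Esrra held rank 4 in WT d0, rank 5 in AMPK-KO d0 at 13.9 TPM and rank 3 in WT d8 at 33.8 TPM, with Ppard above it in AMPK-KO d0 and below it in WT d0, without overlap in either group. Its libraries overlapped those of the next gene, Nrf1, in AMPK-KO d0 and those of Pprc1 in WT d8, so its order against these does not differ beyond the spread. Within a gene, values are given below as CPM (read counts relative to library size, scaled by the trimmed mean of M values), and low genes also as read counts.

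**Figure D1:**
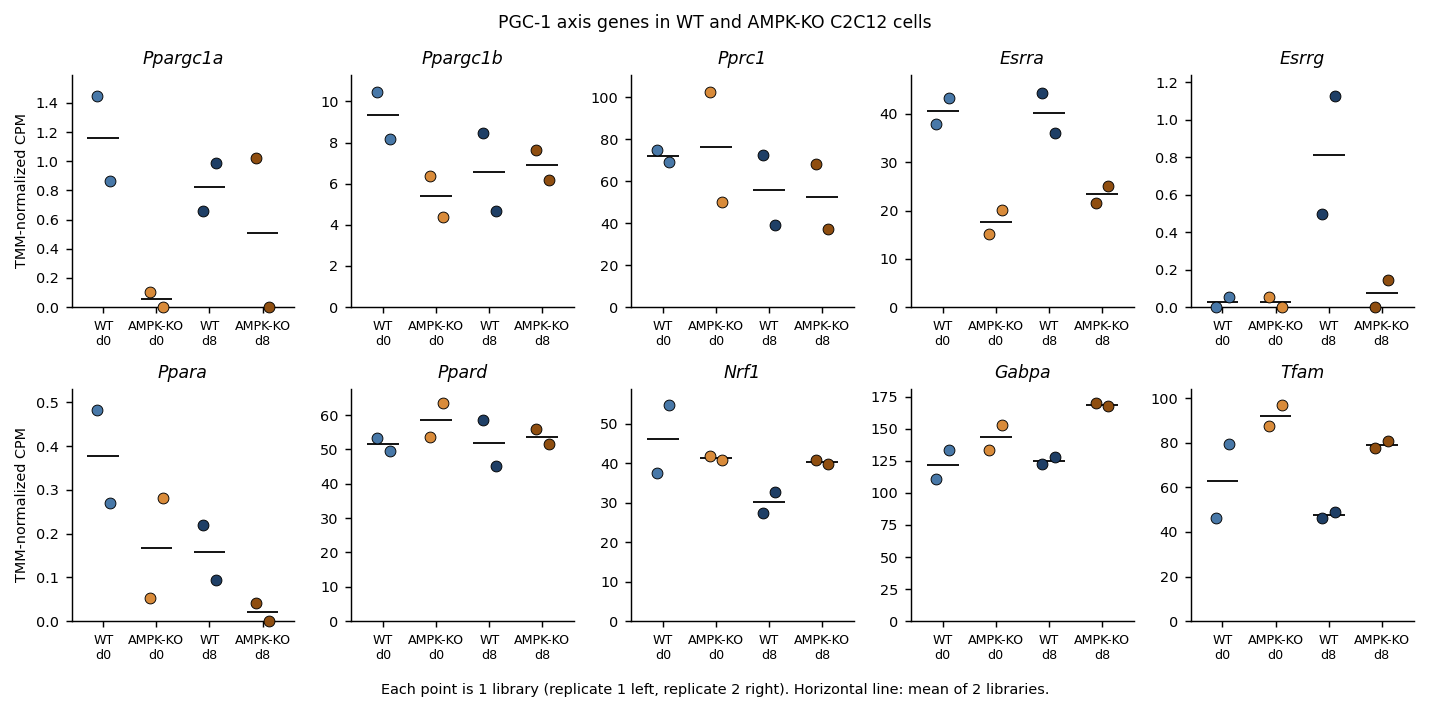
CPM (y axis, linear, from 0) of each of the 10 genes in the 4 groups of the first table (x axis), with replicate 1 on the left, replicate 2 on the right and a line at the mean of both. Esrra stands at 37.9 and 43.3 CPM in WT d0 libraries and at 15.2 and 20.1 in AMPK-KO d0, and Esrrg rises above 0.146 CPM only in WT d8 libraries.

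The edited genes and the muscle markers were examined first. Prkaa1 stood at 159 and 159 CPM in WT d0 and at 79.7 and 78.0 in AMPK-KO d0, and at 126 and 125 in WT d8 against 83.3 and 82.5 in AMPK-KO d8. Prkaa2 had 35 and 33 reads in WT d0 against 4 and 9 in AMPK-KO d0, and 113 and 216 in WT d8 against 31 and 17 in AMPK-KO d8. Both were lower in every AMPK-KO library than in every WT library of the same day, and neither transcript was absent, which counts of a gene with edited exons cannot settle further. In the second table, normalized on its own, Prkaa1 stood at 73.4 to 104 CPM. Prkaa2 stood there at 0.454 to 1.73 CPM, beside 1.69 and 1.79 in WT d0. Of 12 myotube markers, the summed level was 240 and 189 CPM in WT d0, 29.1 and 25.5 in AMPK-KO d0, 7375 and 11460 in WT d8, and 2406 and 13230 in AMPK-KO d8. Acta1, skeletal α-actin, was the most abundant of them in 6 of these 8 libraries. Between d0 and d8, all 12 had a positive log2 fold change in both genotypes and 11 were called higher. The d8 libraries of both genotypes thus held RNA of myotube markers. By cell morphology and myosin heavy chain protein, the paper reports that AMPK-KO cells lost all capacity to form myotubes. Muscle stem cell factor Pax7 had 167 and 169 reads in WT d0 but 0 and 1 in AMPK-KO d0. Of the markers of other lineages, Cidec, Lep and Adgre1 had no read in any of the 16 libraries, Ptprc and Itgam at most 1 read, Ibsp at most 2, Adipoq and Sp7 at most 6, Pecam1 at most 8, Plin1 and Alpl at most 9 and Bglap at most 16. Others in the same lists were detected, namely Cebpa (171 to 3640 reads), Runx2 (913 to 2431), Tek (23 to 212), Cd68 (18 to 134), Csf1r (3 to 38), Kdr (0 to 73), Cdh5 (0 to 43) and Fabp4 (0 to 30), so the adipocyte, osteoblast, endothelial and macrophage lists were not at 0 as a whole.

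To ask how the set depends on AMPK in myoblasts, AMPK-KO d0 was compared with WT d0. Esrra, encoding ERRα, was lower in AMPK-KO cells and was the only gene of the set called at an adjusted p under 0.05. Its level was 37.9 and 43.3 CPM in WT d0 (40.6 ± 3.83, SD, n = 2) and 15.2 and 20.1 CPM in AMPK-KO d0 (17.6 ± 3.41, SD, n = 2). Both knockout libraries lay well below both WT libraries, a 2.30-fold lower level (log2 fold change −1.20, SE 0.216, adjusted p = 0.0331 by edgeR's quasi-likelihood test). Of all 14329 genes tested, 3.52% were called in this comparison, 2.83% as lower, so 1 call in 9 tested genes of the set (Ppara was too low to test) is 1 gene and no feature of the set. The Esrra call was not reached in a fit to the d0 libraries alone (adjusted p = 0.0736), and on leaving out 1 library it was lost for 6 of the 8, while the log2 fold change stayed between −1.44 and −1.03. The adjusted p was 0.204 without AMPK-KO d0 replicate 1, 0.0851 without AMPK-KO d0 replicate 2, 0.0701 without WT d0 replicate 1, 0.0878 without WT d0 replicate 2, 0.0689 without WT d8 replicate 1 and 0.0673 without WT d8 replicate 2.

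Among the coactivators, Ppargc1a was close to the detection limit. It had 30 and 16 reads in WT d0 and 2 and 0 in AMPK-KO d0, with no overlap. The ratio of the summed reads was 23.8-fold lower in AMPK-KO cells, with an exact 95% interval of 6.22 to 202 that covers counting error only. Over the replicates, edgeR's quasi-likelihood test did not call it (log2 fold change −4.38, SE 1.67, adjusted p = 0.2). Without the filter on low counts the same test gave an adjusted p of 0.000377 for Ppargc1a, the only one of 5 alternatives with all libraries of the contrast that called it. With 1 library left out the log2 fold change ranged from −7.60 (without AMPK-KO d0 replicate 1) to −3.42 (without AMPK-KO d0 replicate 2), and no AMPK-KO d0 library reached the filter on low counts. Ppargc1b stood at 10.5 and 8.19 CPM in WT d0 and at 6.39 and 4.39 CPM in AMPK-KO d0, again without overlap (log2 fold change −0.79, SE 0.375, adjusted p = 0.285 by edgeR's quasi-likelihood test). Pprc1 was spread too widely between the AMPK-KO libraries, 102 and 49.9 CPM against 74.7 and 69.0 in WT, to show a difference. For Tfam, Gabpa and Ppard the values pointed the other way, without a call. Tfam stood at 46.4 and 79.6 CPM in WT d0 and at 87.5 and 96.9 CPM in AMPK-KO d0 (log2 fold change 0.55, SE 0.244, adjusted p = 0.258 by edgeR's quasi-likelihood test). Gabpa gave 111 and 133 CPM in WT against 134 and 153 in AMPK-KO, and Ppard 53.4 and 49.6 against 53.5 and 63.6. In Gabpa and Ppard the nearest libraries of the groups all but touched. Nrf1 overlapped, at 37.6 and 54.8 CPM in WT and 41.8 and 40.8 in AMPK-KO. Ppara had 10 and 5 reads in WT d0 and 1 and 6 in AMPK-KO d0, and Esrrg at most 1 read in any d0 library. In all, groups did not overlap in 6 of the 9 tested genes, where 49.4% of all tested genes did not overlap, and the median log2 fold change of the set was −0.04 beside −0.00102 over all genes. Myotube markers moved with genotype at d0, as their sums above show, and 12 of 12 had a negative log2 fold change, of which Myog passed the test (0.628 and 0.561 CPM in AMPK-KO against 29.5 and 19.6 in WT). Of 6 myoblast markers 5 were negative (median −0.78), and Pax7 and Myod1 were called lower (Myod1 −3.29, adjusted p = 0.0147 by edgeR's quasi-likelihood test). Pax7 passed the filter on low counts through WT libraries alone, where it was higher. The part that these marker differences have in the Esrra and Ppargc1a values was not tested. Fewer cells of a type cannot be told apart from less RNA per cell in bulk libraries.

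At d8 the same contrast gave no call in the set, beside 5.35% of all genes. Esrra stood at 44.4 and 36.1 CPM in WT d8 (40.3 ± 5.85, SD, n = 2) and at 21.6 and 25.1 CPM in AMPK-KO d8 (23.3 ± 2.47, SD, n = 2). The AMPK-KO libraries were again the lower pair, without overlap (log2 fold change −0.79, SE 0.213, adjusted p = 0.0846 by edgeR's quasi-likelihood test). DESeq2 gave this difference an adjusted p of 0.0222. Its partner receptor gene Esrrg, which marks oxidative muscle, was detected above the floor of 3 reads in WT d8 libraries, with 9 and 24 reads, against 0 and 3 in AMPK-KO d8. The summed reads were 12.6-fold lower in AMPK-KO cells (exact 95% interval 3.94 to 64.1, counting error only), and edgeR's quasi-likelihood test gave an adjusted p of 0.151. For Ppargc1a the AMPK-KO d8 libraries disagreed with each other, with 25 reads in replicate 1 and 0 in replicate 2, against 12 and 21 in WT d8. No difference can be read from these values. Ppargc1b overlapped as well, at 8.48 and 4.69 CPM in WT d8 and 7.63 and 6.17 in AMPK-KO d8.

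Tfam, Gabpa and Nrf1 lay higher in AMPK-KO d8 cells, without passing the test. Tfam stood at 46.1 and 48.7 CPM in WT d8 and at 77.5 and 80.7 in AMPK-KO d8 (log2 fold change 0.74, SE 0.245, adjusted p = 0.135 by edgeR's quasi-likelihood test). The Tfam difference passed without the filter on low counts (adjusted p = 0.0225), with d8 libraries alone (0.0487), and on leaving out WT d0 replicate 1 (0.0311) or replicate 2 (0.0354). Gabpa stood at 122 and 128 CPM against 170 and 168 (log2 fold change 0.43, SE 0.156, adjusted p = 0.162), and Nrf1 at 27.5 and 32.7 against 40.8 and 39.8 (log2 fold change 0.42, SE 0.21, adjusted p = 0.286). The pairs of these 3 genes lay apart, with a narrow spread within AMPK-KO d8. Groups did not overlap in 5 of 9 tested genes, beside 57.9% of all genes, and the median of the set was 0.05 beside 0.0392. The AMPK-KO d8 replicates differed in myotube marker level (2406 and 13230 CPM summed), and proliferation markers were also unequal between them, at 279 and 120 CPM summed over 6 genes, against 116 and 112 in WT d8. All 6 had a positive log2 fold change in AMPK-KO d8 against WT d8 (median 0.84), with none called, and their part in the values of the set was not tested. Of 6 myoblast markers 5 were negative (median −0.66), with Pax7 called lower, again a gene admitted through WT libraries alone. The part of the myoblast markers was not tested either. The 25 Ppargc1a reads were in the library with the lower myotube and the higher proliferation sum, and whether these are linked was not tested.

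**Figure D2:**
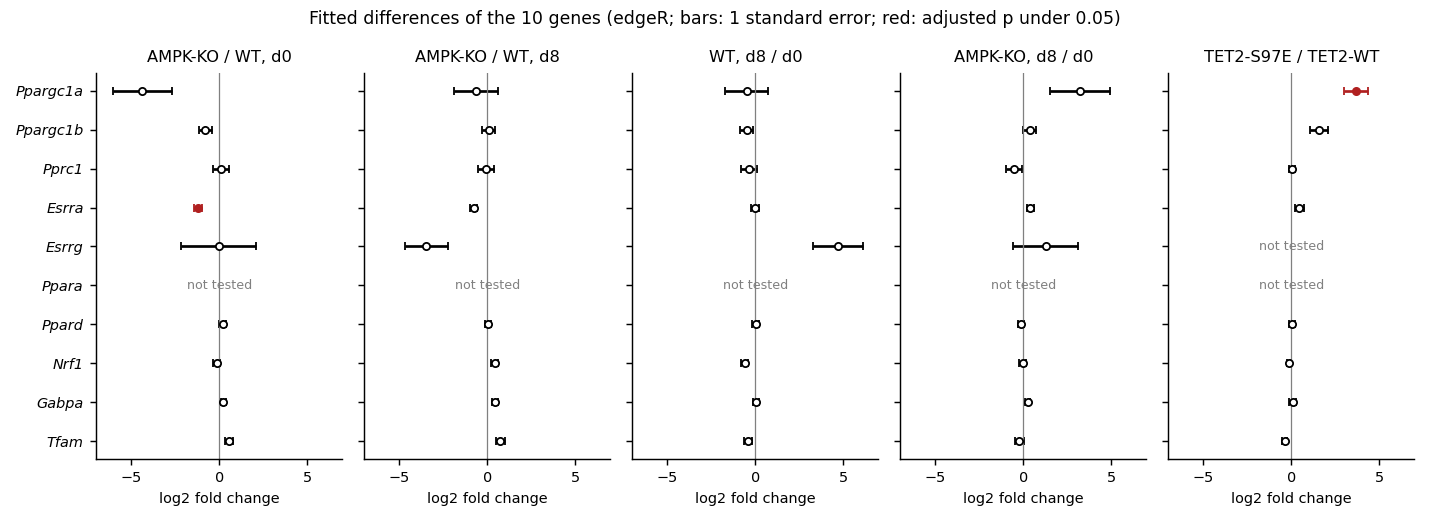
Log2 fold change (x axis) with 1 standard error from edgeR's quasi-likelihood fit for the tested genes of the set (y axis) in 5 comparisons, red where the adjusted p is under 0.05. The red points are Esrra at −1.20 in AMPK-KO against WT at d0 and Ppargc1a at 3.68 in TET2-S97E against TET2-WT.

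During differentiation of WT cells no gene of the set was called between d0 and d8, against 12.4% of all genes. Over the same step all 6 proliferation markers were called lower in both genotypes, with a median log2 fold change of −3.57 in WT and −2.80 in AMPK-KO, and their part in the d8 values of the set and lists was not tested. Esrrg went from 0 and 1 reads to 9 and 24 (32.8-fold by summed reads, exact 95% interval 5.48 to 1330 for counting error only), with an adjusted p of 0.0748 by edgeR's quasi-likelihood test. In this table Esrrg passed the filter on low counts (0.483 CPM) through the WT d8 libraries alone, so its tests in both contrasts with WT d8 rest on a gene admitted by its high group. Without a filter the adjusted p for Esrrg was 0.0111 for WT d8 against d0 and 0.0508 for AMPK-KO d8 against WT d8. Nrf1 went from 37.6 and 54.8 CPM to 27.5 and 32.7, without overlap (log2 fold change −0.62, SE 0.21, adjusted p = 0.0984 by edgeR's quasi-likelihood test). These 2 were the only tested genes of the set without overlap, where 61.5% of all tested genes had none. Ppargc1a had 12 and 21 reads at d8 after 30 and 16 at d0, which overlapped, and Esrra stood at 40.6 ± 3.83 CPM at d0 and 40.3 ± 5.85 at d8 (SD, n = 2 each). The spread of Esrra covers the difference. Ppara, the receptor of the fasting response in liver, had 10 and 5 reads at d0 and 4 and 2 at d8, close to the floor. In AMPK-KO cells, too, no gene of the set was called, against 9.76% of all genes. Esrra was higher at d8, 21.6 and 25.1 CPM after 15.2 and 20.1 (log2 fold change 0.40, SE 0.214, adjusted p = 0.264 by edgeR's quasi-likelihood test), and 4 of 9 tested genes had no overlap beside 59.1% of all. The AMPK-KO Esrra values at d8 remained below every WT value of either day. The median log2 fold change was −0.37 for the set and 0.0132 for all genes in WT, and 0.24 and 0.0211 in AMPK-KO. Whether the d8 change differs between genotypes was tested as an interaction, which gave an adjusted p of 1 for each of the 9 genes and called 0 of 14329 genes (0%) by edgeR's quasi-likelihood test (729 genes had an unadjusted p under 0.05, and DESeq2 called 60).

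The other genes of the pathway were taken from 7 lists, and at most 4 called genes of a list are named in a comparison. In AMPK-KO against WT at d0, 1 of 23 tested fatty acid oxidation genes and 1 of 16 tested import and dynamics genes was called, beside 3.52% of all genes. Slc25a20, the carnitine-acylcarnitine carrier of the inner membrane, was lower in AMPK-KO at both times, with 401 and 313 reads in WT d0 against 51 and 101 in AMPK-KO d0 (log2 fold change −2.29, SE 0.431, adjusted p = 0.0374 by edgeR's quasi-likelihood test). The d8 libraries held 435 and 586 reads against 66 and 122 (log2 fold change −2.58, SE 0.433, adjusted p = 0.0222). These pairs lay far apart, yet of the 8 libraries left out in turn the d0 call was kept for only 2 and the d8 call for 5. Tomm20, a receptor of the outer membrane import pore, was higher, with 2520 and 2623 reads against 4689 and 5197 at d0 (log2 fold change 0.89, SE 0.156, adjusted p = 0.0312) and 2308 and 2455 against 5448 and 4117 at d8 (log2 fold change 0.80, SE 0.156, adjusted p = 0.034). On leaving out each of the 8 libraries in turn, the d0 call was kept for 3 of them and the d8 call for 2, and both were lost in fits to 1 day alone. At d8 Plin2, which coats lipid droplets, was also higher (log2 fold change 1.22, SE 0.219, adjusted p = 0.027 by edgeR's quasi-likelihood test, kept for 3 of the 8 libraries left out in turn).

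In the list of genes upstream of Ppargc1a, the called genes of this contrast were the edited genes themselves, Prkaa1 at d0 and Prkaa1 and Prkaa2 at d8. With each of the 8 libraries left out in turn, the Prkaa1 call was lost for 2 at d0 and 7 at d8 and the Prkaa2 call for 4, and in fits to 1 day alone the adjusted p for Prkaa1 was 0.0512 at d0 and 0.0578 at d8 by edgeR's quasi-likelihood test. By the same test the d8 Prkaa1 call was also lost with at least 10 counts in every library (0.0538) and without a filter (0.0713). Of 17 tested genes that transcribe or replicate mitochondrial DNA, none was called at either time. At d0 16 of the 17 had a positive log2 fold change with a median of 0.32, beside −0.00102 over all genes, and at d8 12 of the 17, with a median of 0.22 beside 0.0392. The 23 respiratory chain and citrate cycle genes were chosen by name as ERR and NRF targets, which was not tested here. None of them was called at either time, with medians of 0.04 at d0 and 0.08 at d8. Nor was any of 17 coregulators or 7 tested partners and paralogues. At d8 the 7 partners were all positive, with a median of 0.39, and 15 of the 17 coregulators were, with a median of 0.28.

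Between d0 and d8, 12.4% of all genes were called in WT and 9.76% in AMPK-KO. Of 15 upstream regulators 3 were called in WT and 1 in AMPK-KO, of 16 import and dynamics genes 2 in each, of 17 coregulators 1 in each, and of 7 partners 1 in WT and 0 in AMPK-KO. In WT 2 of 23 fatty acid oxidation genes rose, Cd36, the fatty acid translocase, from 1 and 2 reads to 390 and 365, and Acot2, a mitochondrial acyl-CoA thioesterase (log2 fold change 1.61, SE 0.351, adjusted p = 0.0311 by edgeR's quasi-likelihood test). Cd36 had at most 2 reads in any d0 library, so it passed the filter on low counts through d8 libraries alone, where it was high. In AMPK-KO 4 rose. Cd36 went from 0 and 0 reads to 11 and 127, and Ucp3, the muscle uncoupling protein, from 0 and 0 to 13 and 13. With no read in AMPK-KO d0, both genes could be tested only through libraries where they were higher. Ucp2 went from 87 and 154 reads to 2969 and 1991 (log2 fold change 4.21, SE 0.723, adjusted p = 0.0231 by edgeR's quasi-likelihood test) and Fabp3, the muscle fatty acid binding protein, from 5 and 7 to 39 and 214. Fabp3, too, passed the filter on low counts only through libraries where it was higher than in AMPK-KO d0. With the replicate number as a block, the AMPK-KO calls of Cd36 (adjusted p = 0.0558 by edgeR's quasi-likelihood test) and Fabp3 (0.0579) were lost. The mitochondrial chaperonin genes Hspd1 and Hspe1 fell in both genotypes (log2 fold changes −1.31 and −1.03 in WT, −1.45 and −1.18 in AMPK-KO), and since processed pseudogenes of both are annotated, their counts are uncertain. Among upstream regulators Mef2a, encoding a MEF2 factor that acts on the Ppargc1a promoter, rose in WT (log2 fold change 0.80, SE 0.168, adjusted p = 0.0292) and in AMPK-KO (1.15, SE 0.169, adjusted p = 0.0217), and Prkaa2 (2.23) and Mef2d (0.66) rose in WT. Prmt1 (−0.86), an arginine methyltransferase that modifies PGC-1α, and Hcfc1 (−0.93), a cofactor of GABP and PRC, fell in WT and the mediator subunit gene Med1 (−0.66) in AMPK-KO. No respiratory chain, citrate cycle or mitochondrial DNA gene was called in either genotype, with medians of −0.09 and −0.04 for the respiratory list in WT and AMPK-KO. Each of these calls was lost on leaving out at least 3 of the 8 libraries in turn. In fits to 1 genotype alone the WT calls of Acot2, Hspd1, Hspe1, Mef2a, Mef2d and Prmt1 were lost, with adjusted p from 0.0602 (Mef2a) to 0.09 (Prmt1) by edgeR's quasi-likelihood test, as were the AMPK-KO calls of Ucp3 (0.058), Fabp3 (0.0729) and Med1 (0.0846).

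In the second table the question was whether imitating phosphorylation of TET2 at serine 97 changes the set in AMPK-KO cells. Ppargc1a was the only gene of the set called, in a test over libraries and not over clones. It had 5, 8, 3 and 10 reads in TET2-WT libraries and 82, 184, 17 and 37 in TET2-S97E libraries, the first pair of each from clone 1. In CPM the values were 0.226, 0.211, 0.137 and 0.356 in TET2-WT (0.233 ± 0.0911, SD, n = 4) and 4.14, 5.99, 0.858 and 1.21 in TET2-S97E (3.05 ± 2.45, SD, n = 4). Every TET2-S97E library exceeded every TET2-WT library, and those of clone 1 were the highest. The level was 12.8-fold higher in TET2-S97E (log2 fold change 3.68, SE 0.687, adjusted p = 0.0176 by edgeR's quasi-likelihood test). Ppargc1a passed the filter on low counts (0.409 CPM in this table) through the 4 TET2-S97E libraries alone, since no TET2-WT library reached it, so its being tested at all depended on the group where it was high. Without a filter the adjusted p for Ppargc1a was 0.00513 by the same test. Of 13433 genes tested, 6.98% were called, 3.71% as higher, and 1 of the 8 tested genes of the set was. Because libraries of a clone share their source, p-values over libraries are too small. With counts summed per clone (2 against 2) the log2 fold change was 3.71 with an adjusted p of 0.325 by edgeR's quasi-likelihood test, and with clone as a random effect it was 3.28 with an adjusted p of 0.106 by limma's moderated test, so the call rests on libraries and not on clones. It was also lost without TET2-S97E clone 1 (log2 fold change 2.11, adjusted p = 0.0655), without TET2-WT clone 1 (adjusted p = 0.134) and without TET2-WT clone 2 (adjusted p = 0.0727). On leaving out single libraries it was lost for TET2-WT clone 1 replicate 1 (0.0602), TET2-WT clone 1 replicate 2 (0.0585) and TET2-WT clone 2 replicate 1 (0.0609), with log2 fold changes from 3.11 to 3.97.

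Ppargc1b was likewise highest in TET2-S97E clone 1. It stood at 1.49, 1.42, 1.19 and 2.99 CPM in TET2-WT and at 6.46, 9.76, 2.07 and 3.20 in TET2-S97E, the groups overlapping through clone 2 of each (log2 fold change 1.60, SE 0.508, adjusted p = 0.0935 by edgeR's quasi-likelihood test). DESeq2 gave an adjusted p of 0.018. Without TET2-S97E clone 1 the log2 fold change was 0.55 with an adjusted p of 0.575, and without TET2-S97E clone 2 it was 2.19 with an adjusted p of 0.0149. Pprc1 did not separate the genotypes (43.9 to 66.1 CPM in TET2-WT, 42.9 to 62.8 in TET2-S97E). Esrra stood at 20.0, 31.0, 15.0 and 21.5 CPM in TET2-WT and at 37.5, 34.9, 23.9 and 23.1 in TET2-S97E, overlapping in 1 TET2-WT library (log2 fold change 0.45, SE 0.246, adjusted p = 0.312 by edgeR's quasi-likelihood test). Tfam lay lower in TET2-S97E, at 64.0, 60.5, 53.1 and 50.3 CPM against 79.7, 79.1, 75.8 and 61.5 (log2 fold change −0.38, SE 0.13, adjusted p = 0.116 by edgeR's quasi-likelihood test). Here too 1 TET2-WT library, clone 2 replicate 2, lay within the range of the other genotype. Nrf1 (36.4 to 39.9 against 31.2 to 39.0 CPM), Gabpa (120 to 181 against 126 to 215) and Ppard (58.1 to 81.6 against 57.7 to 94.7) overlapped. Ppara had 6, 13, 8 and 2 reads in TET2-WT and 1, 0, 0 and 2 in TET2-S97E, a summed ratio 8.88-fold lower (exact 95% interval 2.75 to 45.5, counting error only) in a gene too low to be tested. Esrrg had 2 reads in TET2-WT clone 1 replicate 2 and none elsewhere. Apart from Ppargc1a no tested gene of the set had groups without overlap, against 15.3% of all tested genes, and the median log2 fold change was 0.07 for the set beside 0.011 for all genes.

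**Figure D3:**
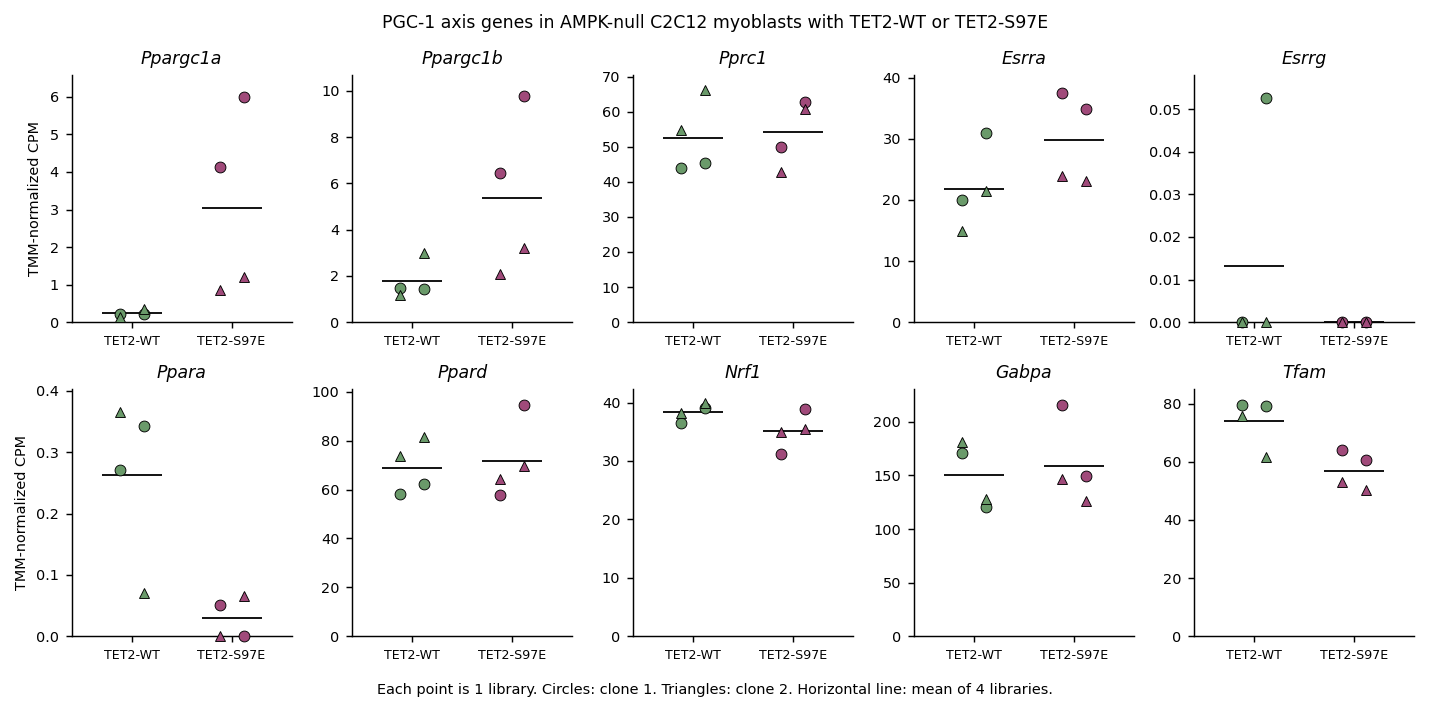
CPM (y axis, linear, from 0) of each of the 10 genes in TET2-WT and TET2-S97E libraries (x axis), with circles for clone 1, triangles for clone 2 and a line at the mean of the 4 libraries. For Ppargc1a the TET2-S97E libraries stand at 4.14, 5.99, 0.858 and 1.21 CPM, all above the highest TET2-WT library at 0.356.

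The clones of TET2-S97E also differed from each other in Ppargc1a. In a fit with 4 clone groups, Ppargc1a was 4.84-fold lower in clone 2 than in clone 1 (0.858 and 1.21 against 4.14 and 5.99 CPM, log2 fold change −2.28, SE 0.486, adjusted p = 0.0272 by edgeR's quasi-likelihood test), 1 of 8 tested genes of the set where 6.17% of 14459 genes were called. The call was lost on leaving out 6 of the 8 libraries in turn, namely TET2-S97E clone 1 replicate 1 (adjusted p = 0.0512), clone 1 replicate 2 (0.164), clone 2 replicate 1 (0.0952) and clone 2 replicate 2 (0.063) and TET2-WT clone 1 replicates 1 (0.0703) and 2 (0.0716). Ppargc1b was 3.05-fold lower in clone 2 (log2 fold change −1.61, SE 0.457, adjusted p = 0.0742 by edgeR's quasi-likelihood test), and Esrra stood at 23.9 and 23.1 CPM against 37.5 and 34.9 (adjusted p = 0.202 by the same test). In 5 of 8 tested genes the clones did not overlap, beside 47.6% of all tested genes, and the median was −0.34 for the set beside 0.0315 for all genes. Most muscle markers were lower in the same clone. Of 6 myoblast markers 4 were called lower in clone 2 (Myod1 −2.36, Chrna1 −1.59, Des −1.59 and Cdh15 −1.41 in log2 fold change), and of 11 tested myotube markers 10 were negative (median −1.82) with 2 called. Of the 6 myoblast markers 5 were negative and 1, Pax7, was higher in clone 2, with its reads given below. All 6 proliferation markers were positive (median 0.69), with none called, and the part of these markers in the Ppargc1a value was not tested. The clones of TET2-WT gave no call in the set, beside 0.858% of all genes, did not overlap in 3 of 8 tested genes beside 53.7% of all, and the median was 0.14 beside −0.00344. For Ppargc1a they gave 0.226 and 0.211 CPM in clone 1 against 0.137 and 0.356 in clone 2, which overlapped.

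Muscle markers moved with Ppargc1a in this table. The 12 myotube markers summed to 22.1, 25.4, 52.2 and 398 CPM in TET2-WT and to 7048, 2735, 2423 and 498 in TET2-S97E, with Acta1 the most abundant in all 4 TET2-S97E libraries. Of 11 tested, 9 were called higher in TET2-S97E, although all libraries were labelled undifferentiated. Myog, the myogenic factor that starts terminal differentiation, stood at 0.407, 0.633, 2.11 and 13.9 CPM in TET2-WT and 141, 180, 56.6 and 42.1 in TET2-S97E. Pax7 had 1, 6, 1 and 2 reads against 42, 51, 50 and 323. Proliferation markers moved with genotype too, 6 of 6 with a positive log2 fold change (median 1.02) and Mki67 called, and summed to 242, 220, 105 and 113 CPM in TET2-WT and 346, 201, 486 and 399 in TET2-S97E, overlapping in 1 TET2-S97E library. Of the endothelial markers, Tek was called lower in TET2-S97E, with 135, 212, 79 and 39 reads in TET2-WT against 26, 27, 23 and 32 (log2 fold change −1.93, adjusted p = 0.0326 by edgeR's quasi-likelihood test). The 4 lowest Ppargc1a libraries were also the 4 lowest in summed myotube markers, and the highest myotube sum (7048 CPM) and the highest Ppargc1a level (5.99 CPM) were in different libraries of TET2-S97E clone 1. In the first table, the d8 libraries of WT exceeded those of d0 manyfold in myotube markers, while Ppargc1a stood at 0.661 and 0.985 CPM at d8 against 1.45 and 0.867 at d0. In AMPK-KO d0 both were below WT d0, with marker sums of 29.1 and 25.5 CPM against 240 and 189. Ppargc1a stood there at 0.105 and 0 CPM. In AMPK-KO d8 libraries, marker sums of 2406 and 13230 CPM stood beside 1.02 and 0 CPM of Ppargc1a. What part the muscle program or proliferation has in the Ppargc1a difference was not tested. Reads of mitochondrially encoded genes made up 1.14%, 1.00%, 1.38% and 2.15% of counts in TET2-WT libraries. For TET2-S97E the shares were 2.29%, 2.12%, 2.03% and 2.09%, so that 3 of 4 TET2-WT libraries lay below all TET2-S97E libraries. In the first table this share differed between replicates, being higher in replicate 1 of every group. Replicate 1 held 1.36% (WT d0), 1.16% (AMPK-KO d0), 1.43% (WT d8) and 0.977% (AMPK-KO d8). Replicate 2 held, in the same order, 0.568%, 0.666%, 0.970% and 0.683%. A cause of the spread between replicates was not tested.

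**Figure D4:**
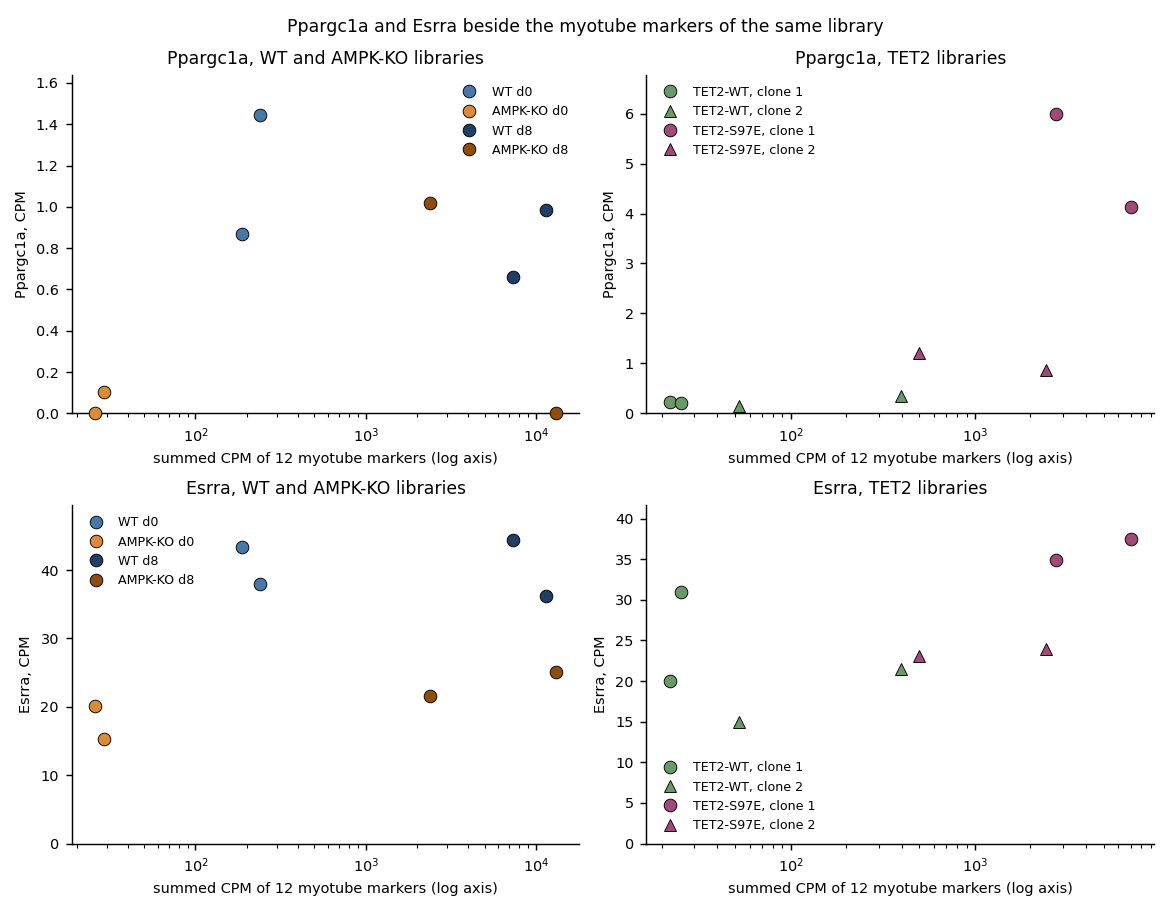
Ppargc1a and Esrra in CPM (y axes, linear) against the summed CPM of 12 myotube markers (x axis, log scale) in each library of the first table and of the TET2 table. In the first table WT d8 libraries lie far to the right of WT d0 without higher Ppargc1a, and AMPK-KO d0 libraries lie left of and below WT d0. In the TET2 table all TET2-S97E libraries lie right of and above the TET2-WT libraries for Ppargc1a.

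Pathway genes were also compared between the TET2 genotypes. In TET2-S97E against TET2-WT, 6 of 19 tested fatty acid oxidation genes were called, 2 higher and 4 lower, beside 6.98% of all genes. Of these 6, Angptl4 alone passed with clone as a random effect, and none passed with counts summed per clone. Angptl4, a secreted inhibitor of lipoprotein lipase and a known PPARδ target, was lower, with 3388, 7033, 4951 and 5289 reads in TET2-WT and 864, 1535, 1368 and 1958 in TET2-S97E (log2 fold change −1.73, SE 0.183, adjusted p = 0.00492 by edgeR's quasi-likelihood test), and every TET2-S97E library lay below every TET2-WT library. Cpt1a, which admits long-chain fatty acids to mitochondria (−0.75, adjusted p = 0.0152), and the medium-chain dehydrogenase gene Acadm (−0.91, adjusted p = 0.0205) were lower as well, while Ucp2 was higher (1.91, adjusted p = 0.0122). The remaining calls were Lpl, encoding lipoprotein lipase (4.37), and Hadh (−0.75), which fall outside the rule for naming genes and are given because the count is small. With the 8 libraries left out in turn, the call was lost for 5 in Lpl, 6 in Hadh, 3 in Acadm and 2 in Cpt1a. The calls of Angptl4 and Ucp2 were kept for all 8. Of 23 respiratory chain and citrate cycle genes, 21 had a positive log2 fold change, with a median of 0.23 beside 0.011 over all genes, and 1 was called, Cycs, encoding cytochrome c (0.65, SE 0.166, adjusted p = 0.0463 by edgeR's quasi-likelihood test, kept for 1 of the 8 libraries left out in turn). Among genes acting on Ppargc1a, Mef2c rose (1.98, SE 0.372, adjusted p = 0.0179) and Ppp3ca, the catalytic subunit of calcineurin, fell (−1.41, SE 0.214, adjusted p = 0.00842). Lpin1, a phosphatidate phosphatase that also coactivates PPARα with PGC-1α, rose (0.92, SE 0.15, adjusted p = 0.0112). None of 17 mitochondrial DNA genes, 16 import and dynamics genes or 7 partners was called.

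**Figure D5:**
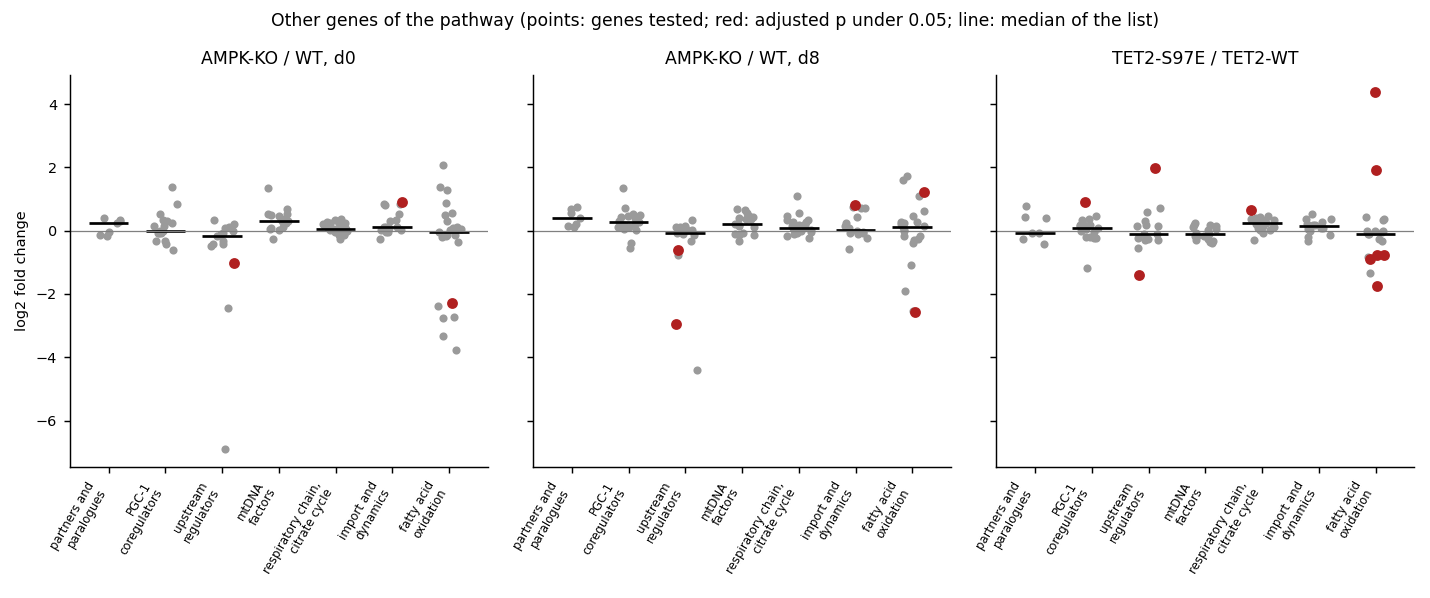
Log2 fold change (y axis) of each tested gene of 7 pathway lists (x axis) in 3 comparisons, red where called at an adjusted p under 0.05, with a line at the list median. Most genes of each list lie near 0, and in TET2-S97E against TET2-WT 21 of 23 respiratory chain and citrate cycle genes lie above 0 with 1 of them called.

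With clone taken into account, these calls held for few genes. With counts summed per clone none of the 10 genes named for this comparison passed, with adjusted p from 0.277 to 0.384 by edgeR's quasi-likelihood test. With clone as a random effect, limma's moderated test gave an adjusted p of 0.0129 for Angptl4 and 0.0364 for Ppp3ca, and from 0.0511 (Lpin1) to 0.2 (Lpl) for the other 8. Without TET2-S97E clone 2 the log2 fold change of Lpl was 1.18 in place of 4.37.

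Between TET2-S97E clones, Lpl was the gene of these lists that differed most in test result. It had 393 and 708 reads in clone 1 and 5763 and 13679 in clone 2 (log2 fold change 4.11, SE 0.253, adjusted p = 0.000115 by edgeR's quasi-likelihood test), against 199 to 405 in TET2-WT libraries. The high Lpl counts were in clone 2, and the call was kept on leaving out each library in turn. Of the adipocyte markers, Fabp4 was called higher in the same clone, with 30 and 29 reads against 0 and 2 (adjusted p = 0.0433 by edgeR's quasi-likelihood test), Cebpa was called lower (log2 fold change −0.71), and the other 4 were too low to test. With at most 2 reads in clone 1, Fabp4 could be tested only through libraries where it was higher. The endothelial marker Cdh5 was called lower, with 0 and 1 reads in clone 2 against 14 and 43 (adjusted p = 0.0143 by the same test). With at most 1 read in clone 2, Cdh5 likewise could be tested only through libraries where it was higher. Whether the Lpl counts are linked to these markers was not tested. Acadl (−1.02), Fabp3 (−3.12) and Plin2 (−0.79) were lower in clone 2, as were Tfb2m (−0.84), a mitochondrial transcription factor, Hspe1 (−0.75), Mff (−0.65), which recruits the fission enzyme, and Cox5b (−0.82), and Foxo1 (0.95) was higher. Outside the naming rule, Ucp2, called higher in TET2-S97E, was also lower in clone 2 (−1.13, adjusted p = 0.0378 by edgeR's quasi-likelihood test). In the respiratory list 22 of 23 genes were negative in clone 2 against clone 1 of TET2-S97E (median −0.22, 1 called) and also in clone 2 against clone 1 of TET2-WT (median −0.30, 0 called), beside all-gene medians of 0.0315 and −0.00344. These medians between clones of 1 genotype were of similar size to the median of 0.23 between genotypes. The clone calls of Acadl, Fabp3, Plin2, Tfb2m, Hspe1, Mff, Cox5b and Foxo1 were each lost on leaving out at least 2 of the 8 libraries.

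As a description of which genes vary alike, the genes with the highest mean of 2 Pearson correlations (log2 CPM, 1 over the 8 libraries of each table, 13077 genes compared) were listed for each gene of the set. Libraries share group, clone and depth, so no p is given. For Esrra these were Ppp2r5b (mean r = 0.961), a regulatory subunit of protein phosphatase 2A, Slc7a4 (0.934) and Olfm1 (0.914). For Ppargc1a they were 4930523C07Rik (0.908), Zbtb7c (0.902) and Ldhb (0.9), the lactate dehydrogenase subunit of oxidative tissues, and for Ppargc1b Ago2 (0.842) and Usp12 (0.837). For Tfam they were Dhrs9 (0.957), Nsmce1 (0.944) and Cct2 (0.936), a subunit of the chaperonin that folds actin and tubulin. For Gabpa they were Hspa13 (0.956), Gm14139 (0.869) and Cop1 (0.856), and for Pprc1 Zfp335 (0.921), Gm17275 (0.914) and Sfswap (0.911). For Nrf1 they were D430036J16Rik (0.894), Casc3 (0.859) and Unc45a (0.854), and for Ppard Alg12 (0.837), Gata2 (0.797) and Zfp469 (0.792). None of the closest genes was another gene of the set.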

How the data were processed

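RNA-seq of 16 C2C12 libraries was used. Per the labels, libraries were made from total RNA with a VAHTS total RNA-seq kit, and per the study's methods they were sequenced paired-end. Per the submitters' processing notes reads went through bcl2fastq 2.17, Trim Galore 0.4.5, STAR 2.5.3a and featureCounts 1.5.3 (GRCm38, GENCODE M12). The authors deposited raw counts per gene in 2 tables, not normalized. The strand setting and the handling of multi-mapping reads are not given in the sources used here. Gene symbols came from GENCODE M21 (49326 of 49585 IDs, all 10 genes). Multi-mapping and strand handling could affect genes with overlaps or pseudogenes.

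Counts were fitted with edgeR 4.0.16 (R 4.3.3, TMM, filterByExpr with a minimum count of 10, quasi-likelihood test, Benjamini-Hochberg over all genes, threshold 0.05), each table on its own. The common biological coefficient of variation was 0.281 (4 residual degrees of freedom) and 0.299 (6). An exact permutation of 2 against 2 libraries cannot give a two-sided p under 0.33. Replicate libraries differed by more than counting noise (chi-square per degree of freedom 29.4 to 107). Alternatives were DESeq2 1.42.0, other size factors, other filters, the replicate block, clone sums, limma 3.58.1 with clone as a random effect, subsets and libraries left out. On simulated counts with 200 genes changed 4-fold the fit recovered 60.5% of them for AMPK-KO against WT at d0, 82.5% for TET2-S97E against TET2-WT and 81% between TET2-S97E clones. The simulated libraries were drawn independently, with no effect shared by libraries of a clone or replicate number. The 82.5% therefore does not describe libraries nested in clones, as the TET2 libraries are.

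The 10 genes and the lists were chosen with earlier results of these data known. Named are the 10 genes, at most 4 called genes per list and comparison with the lowest adjusted p, and the 3 genes most alike in profile to each of the 8 compared, of which 1 is not reported here. In the first table, libraries with the same replicate number in the labels deviated together in every pair of groups (correlation of deviations 0.145 to 0.354). The numbers were read as possible pairs, from the data and not from a stated design. All main fits ignored this pairing, and the replicate block was fitted only as an alternative. Blocked values are given where they change a call. All columns mapped to a sample (0 did not).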

Additional observations from a re-analysis of the deposited data

Results flagged for a closer look

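A library was singled out where its gap to the nearest of the 4 libraries of its TET2 genotype exceeded Dixon's 95% critical share of their whole range, and 19 groups of 4 were tested. Chance alone singles out about 1 group in 20. Esrrg in TET2-WT stood out through clone 1 replicate 2 at 0.0527 CPM, which is 2 reads where the other 3 libraries had none. Ppargc1b in TET2-WT stood out through clone 2 replicate 2 at 2.99 CPM, with a gap of 0.833 of the range, and this library also had the highest summed myotube level of its genotype (398 CPM). A part of the muscle program in that value was not tested.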

How the results depend on the processing

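Counts of calls over all genes moved by more than 1.5 times under several settings. DESeq2 called 1393 genes in AMPK-KO against WT at d0 (505 by edgeR), 1656 at d8 (766), 2762 and 2532 from d0 to d8 in WT (1771) and AMPK-KO (1398), 60 for the interaction (0), 1825 in TET2-S97E against TET2-WT (938), and 1383 and 894 between clones of TET2-S97E (892) and TET2-WT (124). Without a filter the counts were, in the same order, 2026, 2503, 3293, 3039 and 449, and 1680 and 1627 between clones, and with at least 10 counts in every library 204 at d0 and 277 at d8. Fits to 1 day or genotype gave 335 at d0 and 788 for AMPK-KO over time. For TET2-S97E, clone sums gave 0, clone as a random effect 166, and leaving out TET2-WT clone 1 or 2 gave 183 or 625. In the set itself, the 1 call at d0 became 2 without a filter and 0 with d0 libraries alone. The 0 at d8 became 1 with DESeq2 and with d8 libraries alone and 2 without a filter, and the 0 over time became 1 without a filter in WT and in AMPK-KO. The 1 call between TET2 genotypes became 2 with DESeq2 or without TET2-S97E clone 2, and 0 with at least 10 counts everywhere, with clone sums, with the random effect, and without TET2-S97E clone 1, TET2-WT clone 1 or TET2-WT clone 2. Between TET2-S97E clones it became 2 with DESeq2 or no filter and 0 with at least 10 counts. Fewer genes pass that filter, and the other causes were not tested.

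With 1 library left out, all-gene counts ranged over 17 to 613 at d0, 107 to 902 at d8, 0 to 2260 in WT and 0 to 1737 in AMPK-KO over time, 0 to 6 for the interaction, 304 to 1092 for TET2 genotype, and 472 to 1014 and 0 to 313 between clones, and counts in the set over 0 to 1, 0 to 1, 0 to 2, 0 to 0 and, for TET2, 0 to 1 and 0 to 2. In the second table libraries shared only a replicate number (correlation of deviations −0.0572 to 0.508). The replicate block gave 740, 1144, 2360, 1854, 0 and 858 genes, kept the calls of Esrra (adjusted p = 0.0296) and Ppargc1a (0.0258), turned Pprc1 at d0 to −0.0281, and changed no call of a named gene of the set or lists apart from Cd36 (0.0558) and Fabp3 (0.0579) over time in AMPK-KO.

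No called value changed sign. Uncalled log2 fold changes near 0 did: Esrra in WT over time (0.0112 with DESeq2, 0.0113 with its size factors, 0.0276 with at least 10 counts), Nrf1 between TET2-S97E clones (−0.0174 with DESeq2, −0.0166 with its size factors, −0.0121 without a filter), and between TET2 genotypes, without TET2-S97E clone 1, Gabpa (−0.16), Ppard (−0.0612) and Pprc1 (−0.0386) and, without TET2-WT clone 1, Ppard (−0.12) and Pprc1 (−0.16). With 1 library left out, signs changed at d0 for Esrrg (−2.41 to 2.37), Nrf1 (−0.42 to 0.14) and Pprc1 (−0.53 to 0.49), and at d8 for Ppard (−0.11 to 0.27), Ppargc1a (−7.04 to 0.27), Ppargc1b (−0.28 to 0.58) and Pprc1 (−0.57 to 0.45). Over time in WT they changed for Esrra (−0.20 to 0.10), Gabpa (−0.11 to 0.19), Ppard (−0.22 to 0.16) and Tfam (−0.77 to 0.0438), and in AMPK-KO for Esrrg (−2.35 to 3.61), Ppard (−0.26 to 0.0185), Ppargc1a (−3.16 to 6.43) and Pprc1 (−1.03 to 0.0541). For the interaction they changed for Ppard (−0.28 to 0.10), Ppargc1a (−2.65 to 6.91), Pprc1 (−0.63 to 0.42) and Tfam (−0.29 to 0.55). Between TET2 genotypes they changed for Gabpa (−0.0936 to 0.19), Ppard (−0.11 to 0.14) and Pprc1 (−0.0372 to 0.17), between TET2-S97E clones for Nrf1 (−0.14 to 0.17), Ppard (−0.49 to 0.22) and Pprc1 (−0.38 to 0.0708), and between TET2-WT clones for Gabpa (−0.21 to 0.34), Nrf1 (−0.0172 to 0.0934), Ppargc1a (−0.65 to 0.68) and Ppargc1b (−0.29 to 1.02).

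Few reads limit the values of Esrrg, Ppara and, in AMPK-KO libraries of the first table and TET2-WT libraries, Ppargc1a. Total depth was similar in AMPK-KO d0 (19319119 and 20903834 counts) and WT d0 (20484982 and 18776790).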

Other observations

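Genes of the lists with large differences that did not pass the test, chosen after their values were seen, were Mef2c, Pdk4, Ucp2 and Ucp3. Mef2c, encoding a muscle MEF2 factor, had a log2 fold change of −6.91 in AMPK-KO against WT at d0 (adjusted p = 0.0785, edgeR's quasi-likelihood test throughout), and at d8 the value was −4.40 (0.0749). Pdk4, the kinase that restrains pyruvate oxidation and a known ERRα and PPAR target, was at 2.08 at d0 (adjusted p = 0.0605) and 1.60 at d8 (0.0929) in the same contrast. Ucp2 was at −2.75 in AMPK-KO against WT at d0 (adjusted p = 0.0828), and Ucp3 at 4.20 in WT at d8 against d0 (0.0535).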
